A study of Homo sapiens with 6 samples.

Results

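This account concerns 9 genes of the liver and of visceral endoderm (AFP, ALB, APOA1, APOA2, APOB, TTR, HNF4A, SERPINA1 and FGB), chosen by symbol from the 28092 rows of the deposited gene table, and all 9 had a row. They were measured by sequencing of oligo-dT selected RNA in cardiomyocytes made from the H9 line of human embryonic stem cells. There were 3 ADPRHL1 knockout samples (KO) and 3 wild-type samples (WT), collected within 3 days of re-seeding, and all 6 came from the same parental line. ADPRHL1 encodes a heart-enriched pseudoenzyme related to ADP-ribosylhydrolases, and the study asked how its loss affects focal adhesions. The labels give neither the way the gene was disrupted nor the number of knockout clones, so clone and genotype cannot be told apart, and they do not tell whether the replicates were independent cultures. Each p-value therefore rests on how far the 3 samples of a group lie apart. In the fit over all genes that spread is in part shared between genes, and it may be technical variation only.

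Visceral endoderm is the epithelium around the early embryo that lines the yolk sac, and the liver bud later arises from definitive endoderm. Visceral endoderm and fetal liver secrete many of the same plasma proteins and use a shared set of transcription factors, in which HNF4A and FOXA proteins bind the control regions of serum protein genes. Alpha-fetoprotein is known as the main serum protein of yolk sac and fetal liver, and albumin takes its place in the adult. Cardiac mesoderm is induced next to endoderm, and protocols that direct pluripotent cells to heart cells use signals that also form endoderm.

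Sequence upstream of members is shown for APOA2, the member with a match to a searched motif, and for AFP and ALB, neighbours on a chromosome of which AFP passed the test and ALB did not. RefSeq (GRCh38.p14) gave 9 windows of 250 bases upstream of a start site for 6 of the 9 members (AFP, ALB, APOA2, FGB, HNF4A and SERPINA1), and none for APOA1, APOB or TTR. The FOXA letters TGTTTAC, searched on both strands, were in 1 of the 9 windows, that of APOA2, and in 2.98% of all 35116 windows of the same length. In the windows below, written 5′ to 3′ on the strand of the gene, capitals mark the match. APOA2 is shown at chr1:161223629-161223878 (minus strand), AFP at chr4:73435971-73436220 (plus strand) and ALB at chr4:73404037-73404286 (plus strand).
APOA2: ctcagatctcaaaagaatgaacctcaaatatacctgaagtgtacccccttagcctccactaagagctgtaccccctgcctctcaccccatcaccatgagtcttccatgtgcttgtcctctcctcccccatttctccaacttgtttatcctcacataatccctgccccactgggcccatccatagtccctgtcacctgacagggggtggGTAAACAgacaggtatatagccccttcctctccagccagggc
AFP: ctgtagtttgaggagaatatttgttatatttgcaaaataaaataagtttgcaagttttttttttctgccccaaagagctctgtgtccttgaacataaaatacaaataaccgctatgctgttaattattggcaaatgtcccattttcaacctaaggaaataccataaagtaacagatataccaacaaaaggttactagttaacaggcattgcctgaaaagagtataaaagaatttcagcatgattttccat
ALB: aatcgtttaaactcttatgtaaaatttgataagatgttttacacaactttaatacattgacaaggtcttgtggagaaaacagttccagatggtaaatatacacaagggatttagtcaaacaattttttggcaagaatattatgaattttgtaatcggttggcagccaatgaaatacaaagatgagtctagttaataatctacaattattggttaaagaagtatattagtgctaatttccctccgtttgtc
The match in APOA2 reads on the opposite strand, and its first base in the printed window lay 42 bases upstream of the start. The HNF4 letters CAAAGTCCA, also searched on both strands, were in no member's window and in 0.325% of all windows. Only these exact letters were searched, so a window without a match may hold other forms of either motif. The motifs were chosen with the expression values known, and a match describes letters and not a bound site.

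The libraries were of nearly equal size, with 21179650 to 21405718 estimated counts each. ADPRHL1 itself averaged 6.59 ± 0.893 CPM in KO and 80.9 ± 2.41 CPM in WT (CPM, counts scaled to library size; SD, n = 3 each), so each library had the level of the targeted gene that its label gives. The cell type on the labels was present by its markers: the summed level of 17 cardiomyocyte markers was 4355 to 4665 FPKM (fragments scaled by gene length and library size) in KO and 11945 to 12285 FPKM in WT. The summed level of 17 fibroblast markers was 6529 to 7256 FPKM in KO and 3576 to 3675 FPKM in WT. Of the cardiomyocyte markers 16 fell and 0 rose (median log2 fold change -1.67; 0 at an unadjusted p under 0.05, 0 by DESeq2 and 0 by limma-voom), and of the fibroblast markers 13 rose and 4 fell (median 0.99). Of all 19558 genes tested, 28.4% were called higher and 28.6% lower in KO. The make-up of the samples by the cardiomyocyte and fibroblast markers moved together with genotype, and its part in the results below was not tested. In bulk samples, more cells of a type and more RNA per cell cannot be told apart.

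Of the 9 members, 6 were higher in KO and 3 did not pass the test (edgeR's quasi-likelihood test, Benjamini-Hochberg adjusted p under 0.05 over all 19558 genes tested). SERPINA1, HNF4A, TTR and APOA2 rose 3.12-fold to 4.13-fold, AFP and APOA1 rose by less, and ALB, APOB and FGB did not pass. The background was 28.4% of all genes tested called higher and 28.6% called lower in KO, or 57% in either direction. No member was lower in KO by edgeR, by DESeq2 or by limma-voom, and 0 were lower at an unadjusted p under 0.05. All 9 passed the filter on low counts, with the smallest count in any sample being 16, in TTR. The median log2 fold change, KO minus WT, was 0.99 for the members and 0.0011 for all genes tested. KO values lay above all WT values for the 6 called members, where the background was 31.9% of genes with KO higher and 64.4% without overlap in either direction. The members were chosen with earlier results of these data known, so these counts describe the list and are not support of their own.

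**Figure D1:**
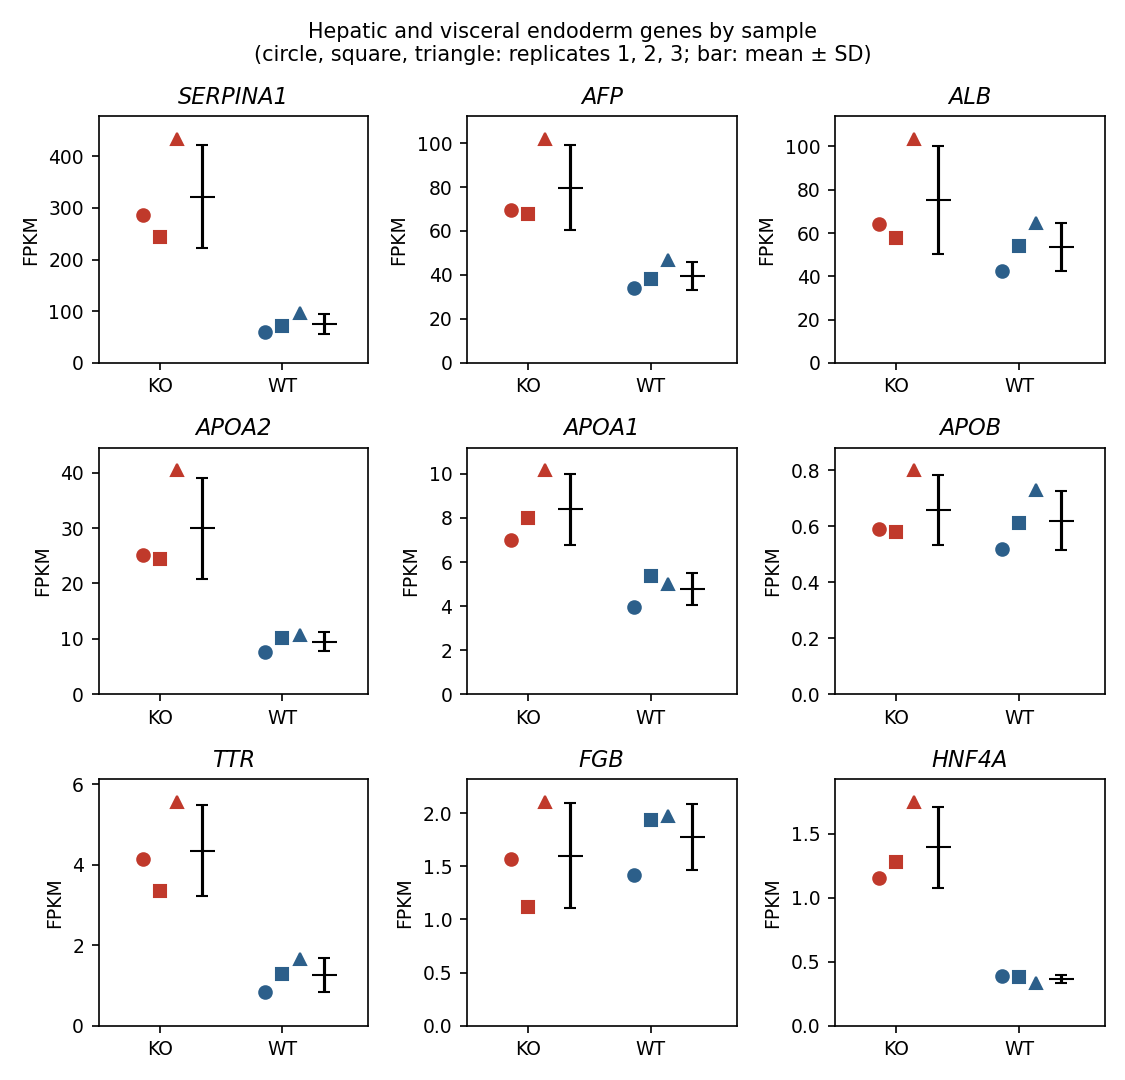
FPKM of each of the 9 genes in every sample, with KO at the left and WT at the right of each panel and its own axis from 0; symbols are replicates 1, 2 and 3, and bars are mean ± SD (n = 3). The KO and WT points are separate for SERPINA1, AFP, APOA2, APOA1, TTR and HNF4A and overlap for ALB, APOB and FGB, and KO replicate 3 is the highest sample in every panel.

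HNF4A (Entrez 3172; hg38, chromosome 20, 44355699 to 44434596), the nuclear receptor that controls the hepatic gene programme, was the member with the smallest p. It stood at 1.15, 1.28 and 1.75 FPKM in KO, against 0.39, 0.38 and 0.33 FPKM in WT. The 3 WT samples were close together and all KO samples were higher. The log2 fold change was 1.78 (SE 0.205, adjusted p = 1.10e-05), which is 3.44-fold, and it remained between 1.58 and 1.89 when any replicate was left out. On the scale of log2(FPKM + 1), which understates changes of low genes, it was 0.80 (adjusted p = 6.46e-04). The level was low in both groups, the lowest of the 9 in WT per length.

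SERPINA1 (Entrez 5265; hg38, chromosome 14, 94376747 to 94390635) encodes alpha-1-antitrypsin, the main inhibitor of neutrophil elastase in plasma, and had the largest fold change among the members. It stood at 286, 245 and 434 FPKM in KO, against 59.1, 71.9 and 97.3 FPKM in WT. Every KO sample was above every WT sample, and KO replicate 3 was well above the other KO samples. The log2 fold change was 2.05 (SE 0.341, adjusted p = 0.00758), or 4.13-fold. Per length it was the highest of the 9 in KO, at 322 ± 99.6 FPKM, while in WT, at 76.1 ± 19.5 FPKM, its range overlapped that of ALB. Monocytes and macrophages also make it. Of 12 markers of those cells 10 had a row and 6 were tested. Of these 6, CD68 (3.46), LYZ (1.48) and PTPRC (2.53) rose and SPI1 (-2.08) fell. Of all genes tested, 28.4% were called higher and 28.6% lower. The FPKM of PTPRC, however, averaged 0.03 in KO and 0.0233 in WT. SPI1 had many counts for its FPKM. In WT replicate 1 it had 1315 counts at 3.47 FPKM, where CD68 had 51.0 counts at 1.29 FPKM. Whether the counts given to SPI1 came from its own transcripts was not tested. The summed level of the list was 20.6 to 26.2 FPKM in KO and 6.47 to 7.99 FPKM in WT, and its largest term in KO, CD68, averaged 15.9 FPKM in KO and 1.43 FPKM in WT. CSF1R averaged 0.25 FPKM in KO and 0.0633 FPKM in WT (1.87, adjusted p = 0.0906), and CD14 0.287 FPKM in KO and 0.48 FPKM in WT (-0.77, adjusted p = 0.170). Of the 4 too low to test, AIF1 averaged 1.04 FPKM in KO and 0.28 FPKM in WT, CD163 0.05 FPKM in KO and 0.0167 FPKM in WT, and ITGAM 0.0367 FPKM in KO and 0.0533 FPKM in WT. C1QA averaged 0.0633 FPKM in KO and was listed at 0 in every WT sample. The part of such cells in the SERPINA1 values was not tested.

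TTR (Entrez 7276; hg38, chromosome 18, 31591877 to 31598821), which encodes the thyroxine and retinol carrier transthyretin, stood at 4.13, 3.34 and 5.57 FPKM in KO, against 0.83, 1.29 and 1.66 FPKM in WT. The groups were separate although the WT counts were only 16, 25 and 32. The log2 fold change was 1.77 (SE 0.285, adjusted p = 1.97e-04), or 3.40-fold.

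AFP and ALB encode related serum carriers and lie next to each other on chromosome 4 (hg38, AFP Entrez 174, 73436221 to 73456174; ALB Entrez 213, 73404287 to 73421482). AFP, the fetal carrier, stood at 69.5, 67.8 and 102 FPKM in KO, against 34.1, 38.4 and 46.7 FPKM in WT. The groups did not overlap. Its log2 fold change was 0.99 (SE 0.236, adjusted p = 0.0222), or 1.98-fold, but the call ended without WT replicate 1 (adjusted p = 0.0742) or WT replicate 2 (adjusted p = 0.0796). ALB, the adult carrier, stood at 64.2, 57.5 and 104 FPKM in KO, against 42.3, 53.9 and 64.5 FPKM in WT. Here KO replicates 1 and 2 lay within the WT range and KO replicate 3 alone lay above it. The log2 fold change of ALB was 0.47 (95% interval -0.40 to 1.34, adjusted p = 0.279) and 0.15 without KO replicate 3 (adjusted p = 0.594), so a rise of the size seen for AFP lies within its interval.

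The fold changes of the apolipoprotein genes differed in size. APOA2 (Entrez 336; hg38, chromosome 1, 161222292 to 161223628), the second most abundant protein of high-density lipoprotein, stood at 25.1, 24.4 and 40.5 FPKM in KO, against 7.56, 10.2 and 10.7 FPKM in WT. Its groups were far apart, 3.12-fold on average (1.64 on the log2 scale, SE 0.244, adjusted p = 6.996e-04). APOA1 (Entrez 335; hg38, chromosome 11, 116835751 to 116837622), the main protein of the same particle, stood at 7.0, 7.99 and 10.2 FPKM in KO, against 3.98, 5.37 and 4.99 FPKM in WT. This smaller separation came to 1.73-fold (0.79 on the log2 scale, SE 0.168, adjusted p = 0.00147). APOB (Entrez 338; hg38, chromosome 2, 21001429 to 21044073), the structural protein of chylomicrons and of low-density and very-low-density lipoprotein, stood at 0.59, 0.58 and 0.80 FPKM in KO, against 0.52, 0.61 and 0.73 FPKM in WT. The ranges of the groups lay over each other, and the log2 fold change was 0.067 (95% interval -0.28 to 0.41, adjusted p = 0.741). That interval leaves out a change as large as those of APOA1 and APOA2.

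FGB (Entrez 2244; hg38, chromosome 4, 154562980 to 154572807), the beta chain of the clotting protein fibrinogen, was the member with a log2 fold change below 0. It stood at 1.57, 1.12 and 2.11 FPKM in KO, against 1.42, 1.94 and 1.97 FPKM in WT, so the KO samples held both the lowest and the highest value. The log2 fold change was -0.18 (95% interval -0.70 to 0.35, adjusted p = 0.543), and it turned to 0.030 without KO replicate 2. The gene length implied by count and FPKM was close in KO and WT for each member, from 443 bases in KO and 442 bases in WT for APOA2 to 14335 bases in KO and 14297 bases in WT for APOB. It differed most for HNF4A, at 4091 bases in KO and 4407 bases in WT, and folds of mean FPKM lay near those from counts, at 4.23 for SERPINA1 and 3.80 for HNF4A.

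**Figure D2:**
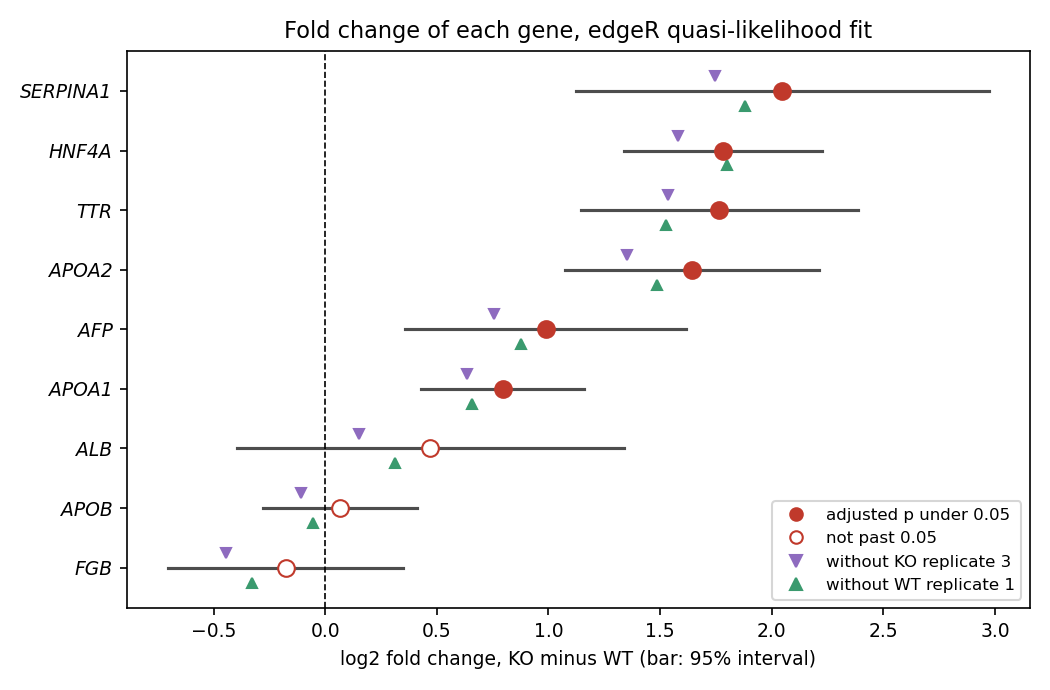
Log2 fold change, KO minus WT, of each gene from edgeR (circles; filled where the adjusted p is under 0.05) with its 95% interval, and the value without KO replicate 3 or without WT replicate 1 (triangles). SERPINA1 leads at 2.05 and FGB is lowest at -0.18, and all values are lower without KO replicate 3 than with it.

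Per length, the order of levels in KO was SERPINA1, AFP, ALB, APOA2, APOA1, TTR, FGB, HNF4A and APOB. Of these neighbours AFP and ALB overlapped, as did FGB and HNF4A, and the others did not. In WT the order was SERPINA1, ALB, AFP, APOA2, APOA1, FGB, TTR, APOB and HNF4A, in which the ranges of SERPINA1, ALB and AFP overlapped from neighbour to neighbour, as did those of FGB and TTR. ALB was thus listed above AFP in WT and below it in KO, at 75.1 ± 24.9 FPKM in KO and 53.6 ± 11.1 FPKM in WT for ALB and at 79.8 ± 19.3 FPKM in KO and 39.7 ± 6.40 FPKM in WT for AFP.

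The members varied together between replicates of the same genotype. KO replicate 3 was the highest KO sample for 9 of the 9 members, against 33.6% of all genes tested. WT replicate 1 was the lowest WT sample for 8 of the 9, with HNF4A the exception, against 31.3% of all genes tested. WT replicate 3 was the highest WT sample for 7 of the 9, against 34.2% of all genes tested. Within KO the median coefficient of variation was 27.4% for the members and 7.57% over the 17246 genes with a mean of at least 1 CPM; within WT it was 17.0% for the members and 5.95% over those genes. KO replicate 3 was also the highest KO sample for 19 of the 24 tested genes of other plasma proteins, 11 of the 17 fibroblast markers, 7 of the 11 lipoprotein genes, 12 of the 19 visceral endoderm genes and 8 of the 14 gut genes. It was so for 3 of the 6 macrophage markers, 11 of the 23 transcription factor genes, 8 of the 19 hepatocyte genes, 4 of the 12 endothelial markers and 2 of the 17 cardiomyocyte markers. The total depth of the 6 libraries was nearly equal. Without KO replicate 3 the same number of members, 6, was called higher, and without WT replicate 1 it was 5.

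**Figure D3:**
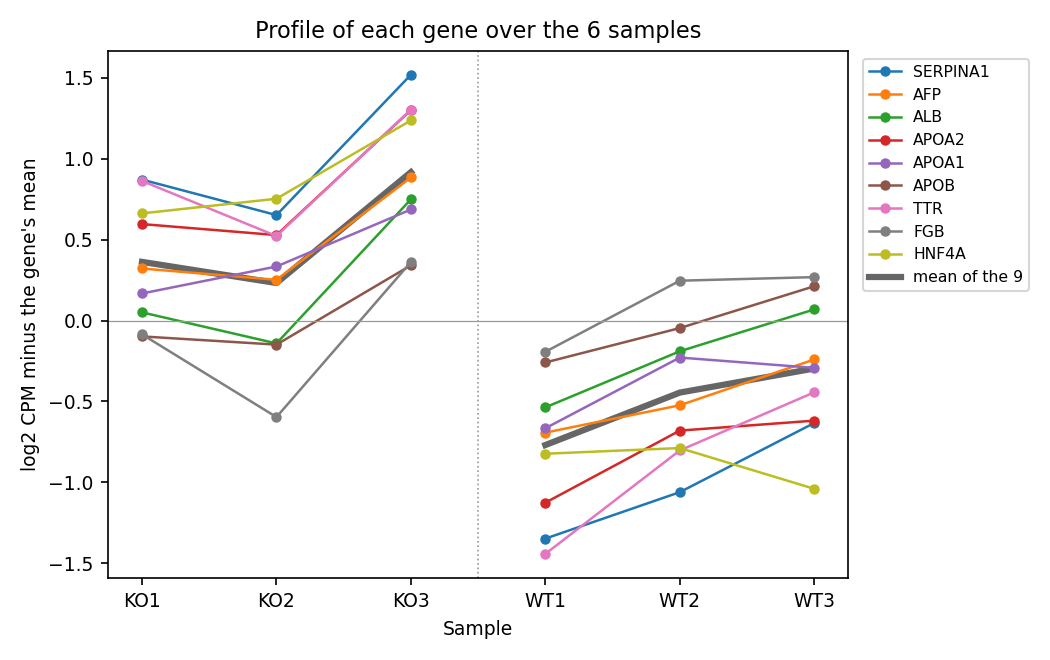
Log2 CPM of each gene minus its own mean over the 6 samples, with a black line for the mean of the 9; KO samples are at the left and lines join samples of a group for reading only. The mean profile is at 0.92 in KO replicate 3 and at -0.77 in WT replicate 1, the highest and lowest of the 6 samples.

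Since the members rose and fell together between replicates, each was also set against ALB in the same library, a comparison chosen after the values were seen. SERPINA1 had 3.62, 3.55 and 3.49 counts per ALB count in KO, against 1.17, 1.12 and 1.26 in WT. The ratio varied by 1.75% within KO, where its CPM varied by 32.8%, and the groups were far apart. AFP had 0.943, 1.03 and 0.858 counts per ALB count in KO, against 0.701, 0.620 and 0.631 in WT. For 7 of the 8 genes the ratio varied less than the CPM within KO, and for 7 of the 8 within WT. The exceptions were APOA1 in KO, whose ratio varied by 19.5% and its CPM by 18.8%, and HNF4A in WT, whose ratio varied by 27.1% and its CPM by 9.21%. Of the 8 ratios AFP, APOA2, TTR, HNF4A and SERPINA1 were higher in every KO library than in every WT library, APOB and FGB were lower, and APOA1 overlapped. Relative to WT the ratio was 3.01-fold for SERPINA1, 2.55-fold for TTR, 2.48-fold for HNF4A, 2.26-fold for APOA2, 1.45-fold for AFP, 0.775-fold for APOB and 0.640-fold for FGB. An exact two-sided permutation test over 3 KO and 3 WT libraries gave p = 0.1 for each of the 7 that did not overlap, which is the smallest p that 3 against 3 allows (0.114 adjusted over the 8), and p = 0.2 for APOA1. None of these ratios could pass 0.05 in this design, and a ratio does not tell which of its 2 genes changed.

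**Figure D4:**
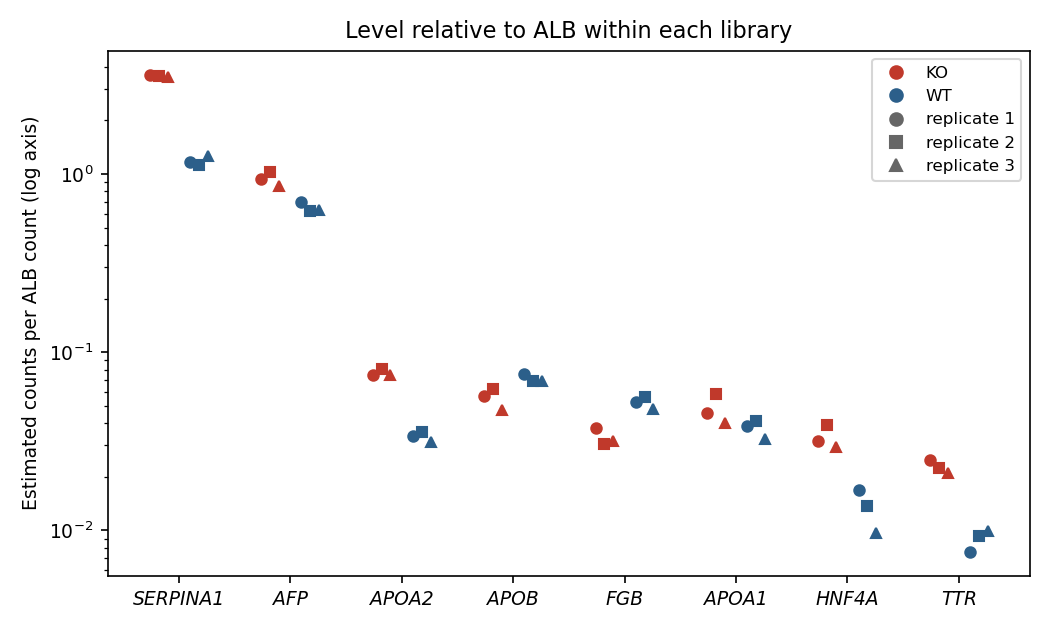
Estimated counts of each gene divided by those of ALB in the same library, on a log axis, with KO (red) left of WT (blue) and symbols for replicates. SERPINA1 sits at 3.49 to 3.62 in KO and at 1.12 to 1.26 in WT, and only APOA1 has overlapping groups.

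Genes that share a chromosomal cluster with a member did not all follow it. Of 29 such genes 27 had a row and 18 were tested, of which 6 rose, 3 fell and 9 did not pass (median -0.047). The higher share was 33.3%, against 28.4% of all genes, with 28.6% of all genes lower. On chromosome 14, the inhibitor genes beside SERPINA1 rose: SERPINA3 (hg38, 94612391 to 94624053), which encodes the acute-phase inhibitor alpha-1-antichymotrypsin, averaged 33.4 ± 6.81 CPM in KO and 6.72 ± 2.21 CPM in WT (log2 fold change 2.31, SE 0.288), and SERPINA11 (1.98), SERPINA4 (1.14) and SERPINA5 (0.96) were higher too. SERPINA10, SERPINA6, SERPINA9 and SERPINA2 were too low to test. On chromosome 11, APOA4, beside APOA1, rose as well (1.56, SE 0.290), and APOC3 and APOA5 were too low to test. On chromosome 4, the other fibrinogen chain genes FGA (0.23, adjusted p = 0.627) and FGG (-0.91, adjusted p = 0.109) did not pass, like FGB. Near AFP and ALB, GC did not pass (-0.53, adjusted p = 0.212), AFM was near 0, RASSF6 (0.98) rose and ANKRD17 (-0.28) fell. The genes flanking TTR on chromosome 18, DSG2 (-0.35) and B4GALT6 (-0.29), fell, although the B4GALT6 call ended under 5 of the 16 alternatives. Near APOA2 on chromosome 1, NR1I3 (-0.26) and TOMM40L (-0.18) did not pass and FCER1G was too low to test. Near HNF4A on chromosome 20, TTPAL (0.065) did not pass and R3HDML was too low to test. LDAH (-0.17), near APOB, did not pass, nor did PLRG1 (0.064) and LRAT (-0.16), near FGB.

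Regulators of the hepatic and endodermal programme moved both ways, more of them higher in KO. Of 28 transcription factor genes 23 were tested, of which 12 rose, 6 fell and 5 did not pass (median 0.53). The background was 28.4% of all genes called higher and 28.6% called lower. SOX17, a factor of endoderm and endothelium, averaged 35.1 ± 1.83 CPM in KO and 3.96 ± 0.125 CPM in WT, CEBPB averaged 35.2 ± 4.23 CPM in KO and 12.02 ± 0.561 CPM in WT, and NR5A2, a nuclear receptor of liver and gut, rose by 1.64 (SE 0.166). PROX1, needed for liver outgrowth and also expressed in heart muscle, fell (-1.80, SE 0.0586), as did ZHX2 (-0.91, SE 0.0588), whose mouse gene represses Afp after birth, and GATA4 (-0.36, SE 0.0431), a factor of both endoderm and heart. SOX17 also marks endothelium, whose 12 tested markers had 10 higher and 1 lower in KO (median 1.37), including ERG (2.17), TIE1 (2.09) and FLT1 (1.89) higher and EMCN (-1.83) lower. The summed level of all 14 listed endothelial markers was 80.5 to 85.9 FPKM in KO and 49.6 to 51.3 FPKM in WT. Its largest terms in KO were KDR, FLT1 and EGFL7, at 36.6, 19.9 and 14.1 FPKM. In WT these averaged 30.3, 5.37 and 9.42 FPKM. PECAM1 averaged 1.52 FPKM in KO and 0.277 FPKM in WT, CDH5 0.313 and 0.17 FPKM, and VWF 0.04 and 0.03 FPKM. The part of endothelial cells in the SOX17 values was not tested.

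Other secreted products of liver and yolk sac rose in part. Of 39 further plasma protein genes 38 had a row and 24 were tested, of which 10 rose, 0 fell and 14 did not pass (median 0.42; 0 lower at an unadjusted p under 0.05, by DESeq2 and by limma-voom). The higher share was 41.7%, against 28.4% of all genes, with 28.6% of all genes lower. SERPINA3 is in this list as well. RBP4, the retinol carrier that binds transthyretin, rose by 1.03 (SE 0.175), F2, which encodes prothrombin, by 1.65 (SE 0.322) and A1BG by 0.95 (SE 0.176). The count was 6 without WT replicate 1, in a fit that called 4978 of all genes higher, against 5553 with all replicates. Of 17 lipoprotein genes 11 were tested, of which 6 rose, 0 fell and 5 did not pass (median 0.43; 0 lower at an unadjusted p under 0.05, by DESeq2 and by limma-voom), a higher share of 54.5%. APOE, which carries lipids in many tissues, averaged 95.8 ± 13.9 CPM in KO and 45.9 ± 0.950 CPM in WT (1.06, SE 0.0960), APOC1 rose by 1.64 (SE 0.266), and PLTP, which moves phospholipid between particles, rose by 0.43 (SE 0.0609) in counts, while its FPKM averaged 24.9 ± 1.40 in KO and 13.1 ± 0.467 in WT.

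Genes of the mature hepatocyte were called about as often as all genes. Of 41 listed 40 had a row, 21 of these were too low to test, 6 rose, 6 fell and 7 did not pass (median -0.43). These shares of the 19 tested, 31.6% in each direction, lie near those of all genes, 28.4% higher and 28.6% lower, so the count sets the list apart in neither direction. ASGR2, a subunit of the asialoglycoprotein receptor (1.39, SE 0.298), the glucuronidation enzyme UGT2B7 (1.29, SE 0.294) and ASS1 (0.32, SE 0.0696) rose. CPS1, the first enzyme of the urea cycle (-0.88, SE 0.121), its last enzyme ARG1 (-0.57, SE 0.115) and the cytochrome CYP2E1 (-1.49, SE 0.220) fell. The lower count was 3 without WT replicate 1. The summed level was 57.2 to 65.7 FPKM in KO and 51.7 to 54.4 FPKM in WT. Most of this sum was 1 gene, ASS1, at 39.2 ± 3.25 FPKM in KO and 30.9 ± 0.985 FPKM in WT.

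Genes of visceral and yolk sac endoderm outside the plasma proteins moved both ways. Of 22 listed 19 were tested, of which 10 rose, 5 fell and 4 did not pass (median 0.32). The higher share was 52.6%, against 28.4% of all genes, with 28.6% of all genes lower. GPC3, a cell-surface proteoglycan of fetal liver and yolk sac, averaged 508.7 ± 49.98 CPM in KO and 220 ± 8.77 CPM in WT, and DLK1, a surface protein of hepatoblasts and many mesenchymal cells, averaged 1318 ± 150 CPM in KO and 354 ± 21.3 CPM in WT. KITLG rose by 1.19 (SE 0.0523). OTX2, a factor of anterior visceral endoderm (-1.90, SE 0.304), FLRT3 (-1.26, SE 0.113) and IGF2 (-0.69, SE 0.0459) fell. GPC3, DLK1 and IGF2 are also expressed by mesenchyme, whose fibroblast markers PRRX1 (1.99), DCN (1.94) and TWIST1 (2.08) rose, with POSTN (-1.83), TCF21 (-1.28) and MEOX1 (-1.99) lower.

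Of 20 genes of intestinal, pancreatic and foregut epithelium 14 were tested, of which 4 rose, 3 fell and 7 did not pass (median 0.097). The 28.6% of the list called higher lies near the 28.4% of all genes. SPP1, a secreted phosphoprotein of bile duct and of many other cells, rose by 3.17 (SE 0.0803), CDH17, a cadherin of intestine and fetal liver, by 1.14 (SE 0.129), and SOX9 by 0.66 (SE 0.0787). CLDN6 (-0.90, SE 0.121), LGR5 (-0.82, SE 0.158) and KRT20 (-1.10, SE 0.295) fell, and the lower count was 6 without KO replicate 3. Of 10 pluripotency markers 7 were tested, of which 4 fell, including L1TD1 (-3.81), CRIPTO (-1.73) and LIN28B (-1.45), and 0 rose (median -0.68; 0 at an unadjusted p under 0.05, by DESeq2 and by limma-voom). Of all genes tested, 28.6% were called lower in KO. The summed level of the pluripotency markers was low, at 3.17 to 3.39 FPKM in KO and 6.44 to 6.76 FPKM in WT.

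**Figure D5:**
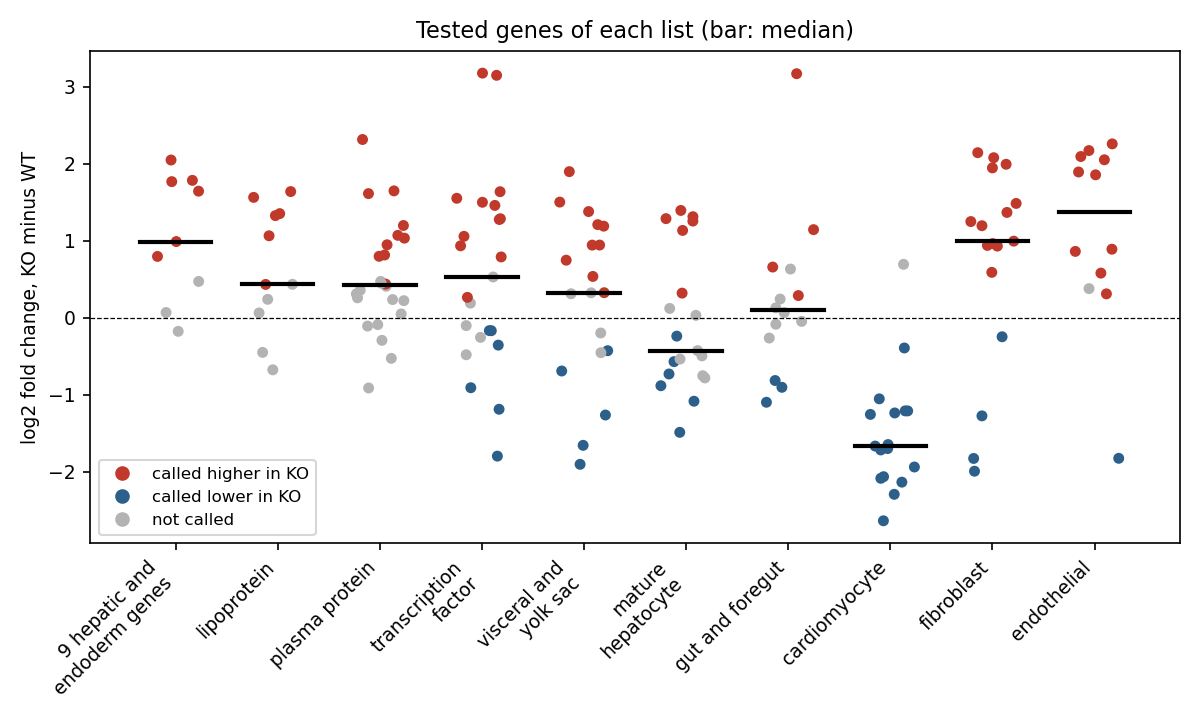
Log2 fold change, KO minus WT, of every tested gene in the 9-gene list and in 9 other lists, coloured by call, with a bar at the median. The medians are 0.99 for the 9 genes, 0.43 for lipoprotein genes, 0.42 for plasma proteins and 0.53 for transcription factors. They are 0.32 for visceral and yolk sac genes, -0.43 for mature hepatocyte genes and 0.097 for gut genes. For cardiomyocyte, fibroblast and endothelial markers they are -1.67, 0.99 and 1.37.

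The genes with profiles closest to the mean of the 9 members, by root mean square difference of centred log2 CPM over the 6 samples among 15605 genes, were CTSH (0.0544), ITIH2 (0.0693), PKP1 (0.0991), CRACDL (0.101) and AHSG (0.118). ITIH2, a heavy chain of the plasma inter-alpha-trypsin inhibitors, had 15.04, 14.76 and 24.5 CPM in KO, against 6.95, 8.39 and 10.5 CPM in WT. AHSG, which encodes the fetal plasma protein fetuin-A, had 13.5, 11.7 and 21.3 CPM in KO, against 5.01, 7.49 and 7.79 CPM in WT. Both are among the listed plasma protein genes and both were highest in KO replicate 3. CTSH, a lysosomal cysteine protease gene, had 10.5, 10.5 and 14.9 CPM in KO, against 4.82, 6.12 and 6.70 CPM in WT. PKP1 had 21.5, 20.4 and 26.9 CPM in KO, against 8.55, 11.3 and 12.7 CPM in WT. CRACDL had 3.41, 3.18 and 4.37 CPM in KO, against 1.28, 1.79 and 1.84 CPM in WT. CTSH, PKP1 and CRACDL are in none of the gene lists and were also highest in KO replicate 3. The likeness is a description over 6 samples of 2 genotypes.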

How the data were processed

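Per the submitters' processing notes the genome build was hg38. No source used here names the aligner, counter or annotation. As deposited by the authors, the table holds estimated counts per gene, mostly not whole, and expression values that were read as FPKM from the values, since the file headers name no unit. The authors' group means were not used. Of 24137 rows with an Entrez ID, 23433 matched a RefSeq symbol, and the other 3955 rows were unnamed models, kept in the fit. Coordinates and upstream sequence are those of RefSeq on GRCh38.p14.

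The rounded counts went into edgeR 4.0.16 (R 4.3.3): filterByExpr (minimum count 10, minimum total 15), TMM scaling, robust quasi-likelihood fit, genotype alone, Benjamini-Hochberg adjustment over all genes tested, threshold 0.05. Standard errors come from the F statistic. The script was tested on simulated counts. The members, the 12 other gene lists and the tests were chosen with earlier results of these data known. Named were ADPRHL1, all members, the 3 risers and 3 fallers of smallest p in each list with a mean of at least 1 CPM, cluster neighbours, and the 5 closest profiles; further macrophage markers were added after their values were seen. Some results are not reported here. Near-identical copies, overlapping and antisense genes are less certain, as strandedness is not stated. As alternatives the fit was repeated with total-count, upper-quartile or RLE scaling, DESeq2 1.42.0, limma 3.58.1 (voom, and log2 of FPKM plus 1 or plus 0.1), no low-count filter, mean CPM of at least 1, the replicate number as a block, and each replicate left out. No replicate pair agreed within sampling noise (chi-square of 3.37 to 6.81 for each degree of freedom), so none was merged.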

Additional observations from a re-analysis of the deposited data

How the results depend on the processing

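Of the 9 member genes, SERPINA1, HNF4A, TTR, APOA2 and APOA1 kept their direction and their call under all 16 alternatives, at 1.75 to 2.25, 0.80 to 1.89, 1.24 to 2.003, 1.35 to 1.78 and 0.63 to 0.90. AFP kept its direction, from 0.76 to 1.11 with a replicate left out, but not its call without WT replicate 1 (0.88) or WT replicate 2 (0.96). The adjusted p of AFP was 4.15e-08 with the replicate block, and from 4.30e-04 (DESeq2) to 0.0796 over the other alternatives. ALB stayed uncalled at 0.15 to 0.64. APOB, at -0.11 to 0.19 with a replicate left out, turned to -0.11 without KO replicate 3 and to -0.0534 without WT replicate 1, and FGB, at -0.44 to 0.030, turned without KO replicate 2; none of these 3 values passed. Each of these fits has fewer samples, and which property of the left-out library mattered was not tested. The number of members called higher was 6 under all alternatives but 2, and 5 without WT replicate 1 or 2. Over all genes tested, same-numbered samples did not deviate together (r = 0.0225, -0.00806 and -0.0135). Only KO replicate 1 correlated best with its own number, so the replicate block pairs nothing known. Among the 9 members, however, replicate 3 was the highest KO sample for 9 and the highest WT sample for 7. With the block the SE was 0.0697 for AFP and 0.104 for SERPINA1, against 0.236 and 0.341 without it. For HNF4A it was 0.217, against 0.205. Whether replicate number paired the member values was not tested. With the block 5290 genes were higher and 5412 lower, against 5553 and 5598. The block added 1 lower lipoprotein gene and 1 higher cardiomyocyte marker. Among the lists, plasma protein genes ranged from 6 to 10 higher and 0 to 1 lower with a replicate left out, mature hepatocyte genes from 3 to 6 lower, gut genes from 3 to 6 lower, macrophage markers from 3 to 5 higher and cardiomyocyte markers from 0 to 1 higher. Mature hepatocyte genes gave 3 lower under DESeq2 and 3 on log2(FPKM + 0.1), cardiomyocyte markers 1 higher and pluripotent markers 1 higher on either FPKM scale, and pluripotent markers 1 higher with no low-count filter; the cause was not tested. Over 56 other named genes and the 16 alternatives, 888 values kept direction and call, 8 kept direction only and 0 reversed. At this depth 21 of the mature hepatocyte genes could not be tested.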
